A study of Homo sapiens with 16 samples.

Results

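RT112 is an established human bladder cancer cell line of epithelial character, and the 4 libraries described here are those of RT112 cells given the histone deacetylase inhibitor CM-1758 (2 libraries) or vehicle (2 libraries), out of 16 libraries in all, from 4 lines of bladder cancer. They were chosen by the cell line and treatment in the sample labels, with no measured value used. The control group was RT112 (genotype WT) with 0.01% DMSO, and the treated group RT112 (genotype WT) with CM-1758 at the IC50 of RT112, both for 48 h from the day after seeding. The study's methods describe 2 independent biological replicates, and total RNA was sequenced after ribosomal RNA removal. The other 3 lines, 253J, J82 and TCCSUP, received the same design, each at its own IC50, and serve here only to show where RT112 differed. A single line stands for 1 tumor, so the replicates measure the spread between cultures of that line and not between tumors.

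Histone deacetylases remove acetyl groups from histone tails, and inhibitors of these enzymes leave chromatin more acetylated, which is known to open transcription at many silent promoters while transcription of highly active genes often declines. The urothelium, the lining from which RT112 derives, is built from basal cells with KRT5 and from superficial umbrella cells with uroplakin plaques, and its identity is held by transcription factors such as GATA3, PPARG and FOXA1. RT112 is also known for a fusion of the growth factor receptor gene FGFR3 with TACC3. Bulk RNA cannot tell fewer cells of a type apart from less RNA per cell, and this holds for every value given here.

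The RT112 libraries held 22756616 to 30502612 counts, with counts on 20108 and 20316 genes in control and on 23080 and 23193 genes with CM-1758, although the treated libraries were the smaller ones. Levels are CPM, with library totals adjusted by TMM scaling factors, so they are shares of a library, and they are compared between libraries and not between genes. The defining markers fit the label: each of 10 epithelial markers passed 1 CPM in both control libraries, and 10 of 11 urothelial markers did, with UPK3A at 0 counts in all 4 libraries. Summed over the lists, the epithelial markers held 7141 and 7373 CPM in control and 7283 and 6378 CPM with CM-1758, and the urothelial ones 2219 and 2458 CPM in control and 1162 and 1221 CPM with CM-1758. Of other cell types, 6 immune markers summed to at most 5.09 CPM in any library, and 5 fibroblast markers to 1330 to 1364 CPM in control, of which 1346 CPM were LUM alone, the gene of the matrix proteoglycan lumican. Neuroendocrine markers rose in sum from 1.90 and 1.80 CPM to 41.7 and 34.0 CPM, with SYP and NCAM1 leading, and their part in the results below was not tested.

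CM-1758 moved a large share of the transcriptome of RT112. Of 21297 genes tested, 5843 were higher (27.4%) and 4307 lower (20.2%) at an adjusted p under 0.05, by the quasi-likelihood F test of edgeR after Benjamini-Hochberg adjustment, which also gives every adjusted p below unless another tool is named. Under the stricter rule of a log2 fold change beyond 2 and an adjusted p under 0.01, 2429 genes were higher (11.4%) and 295 lower (1.39%). The 2 treated libraries lay on 1 side of both control libraries for 15817 genes (74.3%). List counts of higher and lower genes below are to be read against the 27.4% and 20.2%, and any lack of overlap against the 74.3%. The median log2 fold change of all tested genes was 0.12, and 0.27 when libraries were scaled by their totals alone, so small shifts of either sign depend on the scaling.

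Genes that rose and genes that fell started from different levels. Among the 2429 strictly higher genes, 1156 (47.6%) had at most 3 counts in each control library, and a further 887 (36.5%) lay under 1 CPM. Only 3 of them (0.124%) began at 100 CPM or more. Of the 295 strictly lower genes, 126 (42.7%) began at 10 to 100 CPM and 53 (18.0%) at 100 CPM or more. Read the other way, 30.5% of the genes at or below 3 control counts were called strictly higher, against 0.136% of the genes at 100 CPM or more. Low genes can move by a large fold only upward and passed the filter partly through the treated group, so these shares describe the lists and give no test.

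**Figure D1:**
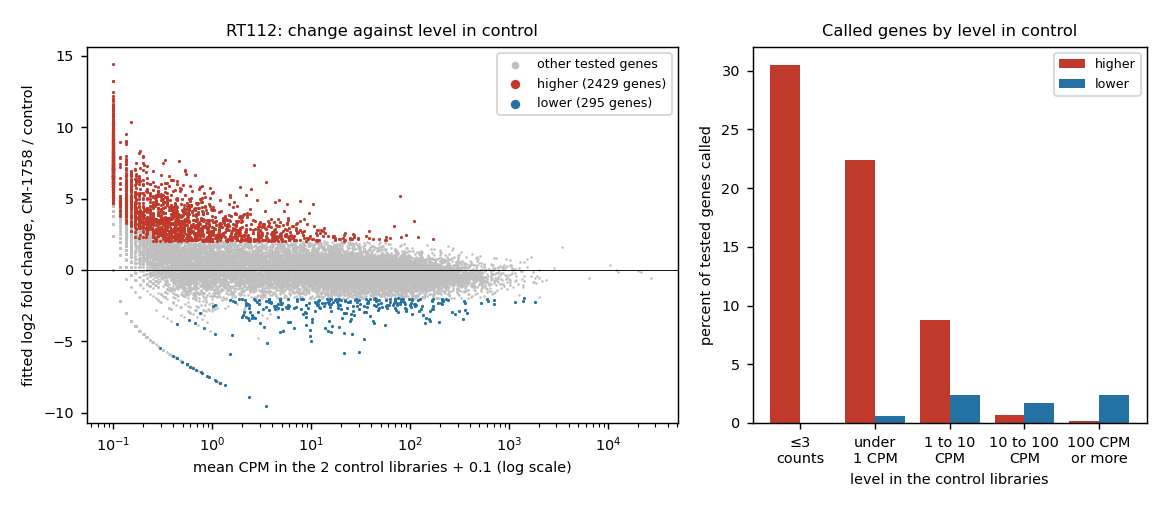
Left, fitted log2 fold change of each of 21297 tested genes in RT112 against its mean level in the 2 control libraries (CPM plus 0.1, log scale), with the strictly higher genes in red and the strictly lower in blue. Right, percent of tested genes called in each direction by level in control, from 30.5% higher at or below 3 counts to 2.40% lower at 100 CPM or more.

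By the count rule, 58 of the 35993 genes in the table (0.161%) had at most 3 counts in each control library and at least 5 CPM in each treated one, and 0 genes showed the converse. RefSeq lists 54 of the 58 as protein coding. In the control libraries of the other 3 lines, 10 of the 58 were also at 3 counts or fewer throughout. KIF1A, a kinesin that carries synaptic vesicle precursors along axons, had 0 counts in both control libraries and 106 and 96.1 CPM in the treated ones, at least 1009.6-fold higher against the floor of 3 counts per library. CD70, the ligand of the costimulatory receptor CD27, went from 0 and 0.102 CPM to 90.0 and 55.1 CPM, at least 727-fold higher. PAK3, a neuronal p21-activated kinase, rose from 0 counts to 42.3 and 45.2 CPM (at least 438-fold) and FREM2, an extracellular matrix protein of epithelial basement membranes, to 41.4 and 46.3 CPM (at least 439-fold). The synaptic adhesion gene NRXN2 (at least 285-fold), the secreted glycoprotein gene AZGP1 (266-fold), TMEM59L (257-fold) and the neuronal tubulin TUBB4A (212-fold) complete the 8 highest. The rule that picked these genes sets a gap between treated and control libraries, so the gap is no separate result.

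Among genes with more than 3 counts in every RT112 library and an average of 10 CPM or more in the higher group, the 10 largest rises were led by SLC4A8, a sodium-driven bicarbonate exchanger. It had 0.327 and 0.136 CPM in control and 51.5 and 47.3 CPM with CM-1758, a log2 fold change of 7.70 (SE 0.26, n = 2 and 2, adjusted p = 1.28e-10). Several of these 10 genes act at synapses or in secretion: the neuropeptide precursor VGF rose from 0.196 and 0.237 to 47.2 and 32 CPM, the vesicle proteins SYT11 and RAB3B to 59.9 and 52.4 CPM and 47.9 and 43.3 CPM, and the Notch-related DNER to 55.9 and 51.2 CPM. The others named here were the fatty acid hydroxylase CYP4F2 (197-fold higher), the collagen COL5A3 (132-fold), the drug efflux pump ABCB1 (81.1-fold) and BIRC3. BIRC3, an inhibitor of cell death and a target of NF-kB, went from 2.12 and 2.98 CPM to 397 and 428 CPM, a log2 fold change of 7.33 (SE 0.34, adjusted p = 2.45e-09).

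By the same rule, the deepest of the 10 largest falls was that of VSIG2. This gene, which encodes a membrane protein of epithelial cells, fell from 34.7 and 33.5 CPM to 1.06 and 1.33 CPM (28.5-fold lower, log2 fold change -4.83, SE 0.42, adjusted p = 2.75e-06). SLC14A1, the urea transporter UT-B of the urothelium, fell from 18.8 and 12.9 to 0.430 and 1.11 CPM, and the lysosomal protease cathepsin S, CTSS, from 25.8 and 17.2 to 1.29 and 0.725 CPM. Ceruloplasmin, CP, fell 22.6-fold with a wide spread inside both groups, at 39.6 and 11.5 CPM in control and 0.196 and 2.06 CPM with CM-1758. The rest were the transcription factor ATOH8 (16.1-fold lower), the prostacyclin synthase PTGIS (15.6-fold), SHROOM4 (16.7-fold), LOC654780 (19.7-fold), COLCA1 (14.2-fold) and the GABA receptor subunit GABRP (13.5-fold). DESeq2 with all 4 lines in 1 model did not call GABRP (adjusted p = 0.668) or COLCA1 (adjusted p = 0.0849), while DESeq2 on the RT112 libraries alone called both.

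Measured in CPM, the rises with the most reads were of another kind. The nuclear noncoding RNA MALAT1 rose from 2993 and 3895 to 8678 and 12022 CPM, the lysosomal saposin precursor PSAP from 1754 and 1579 to 3183 and 2929 CPM, the integrin subunit ITGB1 from 1482 and 1527 to 2597 and 2459 CPM, and fibronectin, FN1, from 879 and 953 to 1606 and 1563 CPM. S100A6 (1.63-fold) and the spectrin SPTBN1 (1.43-fold) rose less. ALPG and ALPP, the germ cell and placental alkaline phosphatases, rose 35.4-fold and 10.8-fold, but they are near-identical copies and their reads may have been split between them. The falls with the most reads were the small nuclear RNA RN7SK (29703 and 24571 to 18888 and 17502 CPM), KRT13, the protease CTSH (1912 and 1755 to 336 and 442 CPM), the glycosyltransferase GALNT1 (1410.1 and 1369 to 287 and 332 CPM), UPK1B, the imprinted gene MEST (1220.0 and 1069 to 229.6 and 248 CPM), the fatty acid desaturase SCD (2259 and 2039 to 1118 and 1406 CPM) and the chaperone HSPA8 (2289 and 2361 to 1382 and 1522 CPM). RN7SK and SCD were not called when libraries were scaled by their totals alone (adjusted p = 0.0501 and 0.0944), and the call was lost for SCD without any 1 library (adjusted p = 0.056 to 0.198), for RN7SK without control library 1 or treated library 2 (adjusted p = 0.115 and 0.0758) and for HSPA8 without treated library 1 (adjusted p = 0.0715). Those of S100A6 and SPTBN1 were lost without treated library 1 (adjusted p = 0.129 and 0.137) and without control library 2 and control library 1, respectively (adjusted p = 0.103 and 0.163).

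**Figure D2:**
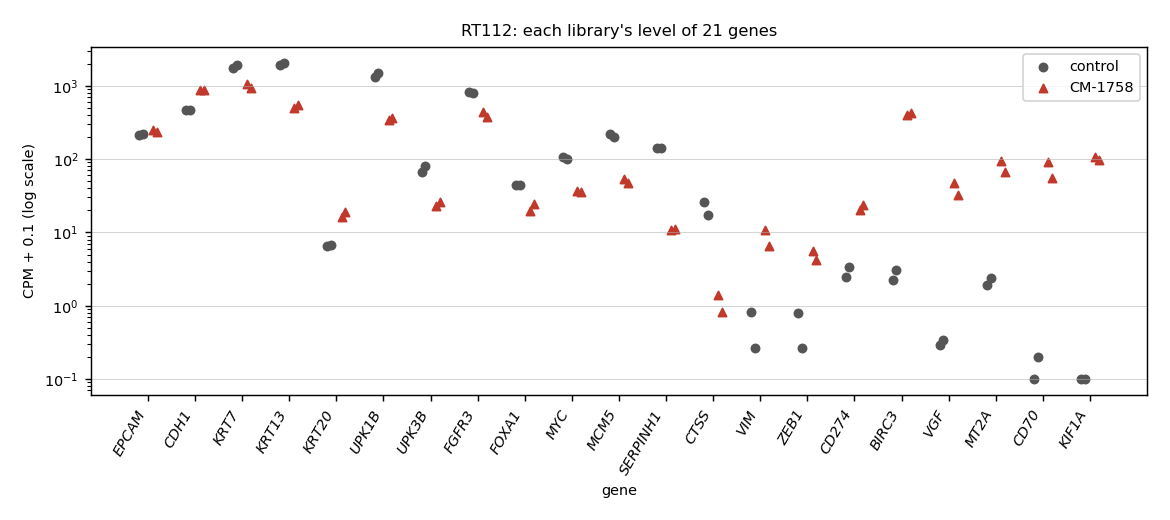
Level of 21 genes in each of the 4 RT112 libraries (CPM plus 0.1, log scale), with control libraries as grey circles and CM-1758 libraries as red triangles. From KRT13 and UPK1B, which lay 3.77-fold and 4.0-fold lower with CM-1758, to KIF1A and CD70, which had at most 3 counts per control library, the 2 groups do not overlap for any of these genes. No overlap was also found for 74.3% of all tested genes.

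Most uroplakins, the membrane proteins of the umbrella cell plaque, fell. Of 6 tested, 4 were lower (20.2% of all tested genes were), 0 were higher, UPK2 did not pass (4.05 and 4.54 CPM in control, 2.07 and 2.78 CPM with CM-1758, adjusted p = 0.177, though 0.0273 with edgeR on RT112 alone), and UPK3A had no counts in RT112. The list's median log2 fold change was -1.80, against 0.12 over all tested genes. UPK1B had 1298 and 1517 CPM in control and 345 and 359 CPM with CM-1758 (log2 fold change -2.0, SE 0.27, adjusted p = 8.83e-05). UPK1A fell from 4.87 and 5.22 to 0.274 and 0.229 CPM, UPK3B from 67.3 and 79.4 to 22.8 and 25.7 CPM and UPK3BL1 from 226 and 231 to 49.6 and 64.1 CPM. The groups did not overlap in any of them, as in 74.3% of all tested genes.

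Keratins are the intermediate filaments that mark epithelial layers. Of 19 tested, 5 were higher, near the 27.4% of all tested genes, and 7 lower (20.2% of all tested genes), and their median of -0.25 turned to 0.15 over the members with at least 10 counts in every RT112 library and to 0.19 without the control library 2. KRT13 and KRT4, keratins of stratified wet epithelia, fell from 1928 and 2062 to 505 and 553 CPM and from 201 and 209.9 to 61.4 and 68.5 CPM. KRT7, of simple epithelium and urothelium, fell from 1765 and 1926 to 1050.2 and 921 CPM, and basal KRT5 from 271 and 282 to 142 and 163 CPM. KRT20, a marker of umbrella cells, instead rose from 6.47 and 6.57 to 16 and 18.6 CPM, beside KRT15 (2.82-fold), KRT23 (3.09-fold) and KRT80 (3.12-fold). The calls of KRT4, KRT5, KRT7, KRT13 and KRT23 were lost with DESeq2 over all lines (adjusted p = 0.456, 0.966, 0.142, 0.575 and 0.525) and held with DESeq2 on RT112 alone. KRT7 did not pass with RLE scaling, library size scaling or at least 10 counts in every RT112 library (adjusted p = 0.0662, 0.0955 and 0.054). That of KRT7 was also lost without any 1 library (adjusted p = 0.0967 to 0.184), and that of KRT5 without control library 1, control library 2 or treated library 1 (adjusted p = 0.0586, 0.0729 and 0.101).

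Of 14 transcription factors of urothelial identity, 3 were higher and 5 lower, against 27.4% and 20.2% of all tested genes. FOXA1 fell from 44.8 and 44.4 to 19.8 and 24.2 CPM (2.03-fold, adjusted p = 0.000153), TBX2 from 18.3 and 15.6 to 7.0 and 7.7 CPM and GRHL2, a guardian of epithelial identity, from 195 and 221 to 134 and 140.1 CPM. GRHL2 did not pass with library size scaling (adjusted p = 0.0613). GATA3 had 36.5 and 38.4 CPM in control and 45.6 and 47.1 CPM with CM-1758 (adjusted p = 0.642), PPARG 194 and 214 and 179.7 and 174 CPM (adjusted p = 0.297), ELF3 223 and 212 and 322 and 304 CPM (adjusted p = 0.0972) and TP63 136 and 133 and 89.6 and 128 CPM (adjusted p = 0.319), and none of these 4 passed, although DESeq2 called the rise of ELF3 (adjusted p = 0.00935 over all lines). With edgeR on RT112 alone, ELF3 and GATA3 passed (adjusted p = 0.00229 and 0.0331). ELF3 also passed with library size scaling and with the replicate block (adjusted p = 0.045 and 0.0166). The grainyhead factor GRHL3 rose from 2.52 and 5.25 to 17.8 and 18.3 CPM, the interferon regulatory factor IRF1 rose 1.83-fold, and SOX2 rose from at most 3 counts to 4.73 and 2.86 CPM. The call of GRHL2 was lost without control library 2, treated library 1 or treated library 2 (adjusted p = 0.112, 0.0842 and 0.0582), and that of IRF1 without control library 1, control library 2 or treated library 2 (adjusted p = 0.0502, 0.0628 and 0.0596).

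Cell junction genes also divided, with 13 of 37 higher and 10 lower, against 27.4% and 20.2% of all tested genes. Their median of 0.06 was near the 0.12 of all tested genes. E-cadherin, CDH1, rose from 461 and 473 to 875 and 872 CPM (log2 fold change 0.90, SE 0.21, adjusted p = 0.00227). Of the tight junction members, occludin OCLN rose 2.25-fold and the scaffolds TJP1 and TJP3 2.08-fold and 4.29-fold, while the claudin CLDN7 did not pass at 115 and 132 CPM in control and 123 and 92.9 CPM with CM-1758. The desmosome gene PKP2 was among the 13 higher genes, and PKP3 fell from 111 and 102 to 35 and 28.9 CPM and DSC3 from 165 and 154 to 55.7 and 74.3 CPM. The adhesion and signaling gene CTNNB1 fell from 810.2 and 722 to 516 and 498 CPM, and EPCAM, the epithelial cell adhesion molecule, did not pass at 212 and 219.9 CPM in control and 248 and 237 CPM with CM-1758.

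Of 34 mesenchymal genes tested, 19 were higher and 3 lower, against 27.4% and 20.2% of all tested genes. Their median was 1.28, and 1 had at most 3 counts in all 4 libraries. Of the 19 higher genes, 5 came from at most 3 counts in each control library. Vimentin, VIM, rose from 0.719 and 0.169 to 10.6 and 6.37 CPM, the repressor ZEB1 from 0.687 and 0.169 to 5.4 and 4.16 CPM, SNAI1 from 0.0981 and 0.271 to 10.3 and 7.44 CPM and N-cadherin, CDH2, from 4.84 and 4.54 to 26.6 and 27.6 CPM. Larger levels were reached by CCN2 (3.53 and 7.62 to 105 and 169 CPM) and CCN1 (9.19 and 13.6 to 50.4 and 107 CPM), matricellular proteins known as YAP targets. COL6A3 rose to 23.6 and 31.8 CPM, and its fold of 327 rests on few control counts. The 3 lower genes began high: TGFBI fell from 477 and 433 to 124 and 152 CPM, LUM from 1363 and 1329.8 to 809 and 882 CPM and the protease MMP2 from 101 and 105 to 23.9 and 41.5 CPM. The call of MMP2 was lost with DESeq2 over all lines (adjusted p = 0.226). Without control library 1, control library 2 or treated library 1, MMP2 (adjusted p = 0.0668, 0.0758 and 0.141) and LUM (adjusted p = 0.0662, 0.0524 and 0.0887) did not pass. Mesenchymal markers in the narrower list of 8 summed to 12.5 and 11.9 CPM in control and 70.8 and 64.3 CPM with CM-1758.

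SERPINH1, the chaperone HSP47 that folds collagen in the endoplasmic reticulum, fell 12.9-fold, from 139.6 and 140.4 CPM to 10.7 and 11 CPM (log2 fold change -3.69, SE 0.22, adjusted p = 1.77e-08). Its list of 19 genes of collagen folding and cross-linking held 6 higher genes, near the 27.4% of all tested genes, and 7 lower ones (20.2% of all tested genes). The fall of SERPINH1 was thus not shared by all of them. The lysyl oxidase LOXL1 fell from 8.17 and 9.12 to 2.19 and 3.05 CPM, its relative LOXL2 rose from 0.262 and 0.407 to 6.14 and 8.2 CPM, and the lysyl hydroxylase PLOD2 and the prolyl hydroxylase P3H1 rose by 0.96 and 0.99 on the log2 scale.

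Among receptors of growth factors, FGFR3, ERBB2 and ERBB3 fell, and FGFR1, FGFR4 and EGFR rose. FGFR3, the receptor of the known fusion in RT112, fell from 829 and 807 CPM to 441 and 374 CPM (log2 fold change -1.01, SE 0.15, adjusted p = 6.85e-05), and TACC3 from 295 and 281 to 178 and 160.4 CPM. TACC3 did not pass with library size scaling (adjusted p = 0.0528). Counts per gene cannot tell a fusion transcript from the normal one. FGFR1 rose from 1.67 and 2.58 to 10.0 and 9.88 CPM and FGFR4 from 2.35 and 2.58 to 28.1 and 26.9 CPM. In the list of FGF receptor and MAPK feedback genes, 14 of 27 were higher and 4 lower, with a median of 0.92. The immediate early genes EGR1 (0.327 and 0.271 to 6.57 and 21.1 CPM) and FOS (16.7 and 17.3 to 70.4 and 97.2 CPM) rose, while the feedback phosphatase DUSP6 and the factor ETV4, both known as readouts of MAPK activity, fell by 0.58 and 0.69 on the log2 scale. The call of DUSP6 was lost without control library 1 (adjusted p = 0.0715), and that of TACC3 without control library 1 or treated library 2 (adjusted p = 0.0664 and 0.0922).

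Of 14 ERBB receptors and ligands, 7 were higher (27.4% of all tested genes were) and 3 lower, near the 20.2% of all tested genes. EGFR rose from 309 and 319 to 615 and 679.7 CPM (2.06-fold, adjusted p = 0.00144). ERBB2 fell from 221 and 222 to 111 and 119 CPM and ERBB3 from 201 and 212 to 83.1 and 88 CPM. Ligands of EGFR rose, amphiregulin AREG 17.7-fold from 4.54 and 5.76 to 80.3 and 102 CPM and TGFA 2.18-fold. Among 13 surface targets of antibody drugs, 4 were higher and 5 lower, against 27.4% and 20.2% of all tested genes. CEACAM6 fell from 106 and 123 to 26.9 and 39.4 CPM.

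Most genes of S phase fell. In the DNA replication list, 40 of 53 genes were lower and 2 higher, with a median of -0.83. MCM5, a subunit of the replicative helicase, fell from 219 and 202 to 53.3 and 46.9 CPM (log2 fold change -2.07, SE 0.16, adjusted p = 2.13e-07), beside MCM3 (3.96-fold lower), MCM2 (3.29-fold), E2F1 (3.03-fold), the ribonucleotide reductase subunit RRM1 (2.93-fold) and cyclin E2, CCNE2 (2.8-fold). Of 34 genes of homologous recombination and the Fanconi pathway, 23 were lower and 0 higher, with a median of -0.71; XRCC2 fell 2.56-fold, FANCG 2.46-fold, CHEK1 2.2-fold and BRCA1 1.99-fold.

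Of 58 mitosis genes, 14 were lower, a share near the 20.2% of all tested genes, and 3 higher (27.4% of all tested genes). Their median was -0.32. KIF20A, a kinesin of cytokinesis, fell from 196 and 191 to 79.2 and 58.6 CPM, MYBL2 from 62.2 and 59.7 to 25.8 and 27.2 CPM and cyclin A2, CCNA2, from 92.6 and 90.3 to 49.7 and 36.4 CPM. CEP55, of the abscission site, and the phosphatase CDC25B rose, from 115 and 111 to 232 and 188 CPM and from 25.4 and 27.1 to 55.2 and 58.4 CPM. The proliferation marker MKI67 had 307 and 374 CPM in control and 291 and 310.3 CPM with CM-1758, TOP2A 897 and 911 and 770.2 and 630.0 CPM, and CCNB1 263 and 265 and 223 and 148 CPM, and these 3 did not pass (adjusted p = 0.73, 0.174 and 0.0905). With edgeR on the RT112 libraries alone, the falls of TOP2A and CCNB1 passed (adjusted p = 0.0345 and 0.0359), and that of CCNB1 did so too without treated library 1 (adjusted p = 0.0288).

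The classical inhibitor of cyclin-dependent kinases, CDKN1A, had 60.1 and 65.1 CPM in control and 72 and 77.7 CPM with CM-1758 and did not pass (log2 fold change 0.26, SE 0.24, adjusted p = 0.411). CDKN2A and CDKN2B had 0 counts in all 4 libraries. CDKN2D rose from 7.32 and 6.54 to 24.2 and 19.8 CPM and CDKN1C from 3.14 and 2.3 to 6.65 and 5.72 CPM, while CDKN2C fell 2.27-fold and the kinase CDK4 2.75-fold. Of 25 genes known as p53 targets, 8 were higher and 9 lower, against 27.4% and 20.2% of all tested genes. PLK3 (6.76-fold) and GDF15 (3.8-fold) were at the top and TP53I3 (3.52-fold lower) at the bottom.

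Histone genes of the replication-dependent clusters fell nearly as a block, with 35 of 38 tested members lower, 0 higher and a median of -1.63. H2AC4 fell from 96.9 and 85.3 to 12.7 and 12.6 CPM (log2 fold change -2.85, SE 0.28, adjusted p = 1.64e-06), H2AC11 from 390.2 and 324 to 82.7 and 61.1 CPM and the linker histone H1-2 from 558 and 468 to 225 and 182 CPM. These genes are near-identical copies, so values of single members are uncertain while the list is less so, and most of their transcripts lack the poly(A) tail, which total RNA libraries keep. Of 15 replacement and polyadenylated histone genes, 4 were higher, near the 27.4% of all tested genes, and 8 lower (20.2% of all tested genes). MACROH2A2 fell from 49.6 and 43.6 to 5.95 and 7.44 CPM.

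Promoters of cell cycle genes are known for the letters CCAAT, a site of the factor NF-Y, and these were counted in the histone and mitosis lists. In RefSeq windows of 300 bases (250 before and 50 after the start, GRCh38.p14, matched by symbol), CCAAT on either strand was in 27 of 33 matched histone promoters (81.8%) and in 40 of 50 mitosis promoters (80.0%), against 36.7% of 14270 matched tested genes and 35.7% of 27305 promoters in the table. TTTGAA, letters of the cell cycle homology region, was in 35 of the 50 mitosis promoters (70.0%) and in 1 of 43 DNA replication promoters (2.33%), against 10.8% of tested genes. Neighboring histone genes can share a window, and a match is a description of letters. The 150 bases before the start of H2AC4, which fell 7.19-fold, and of CCNB1, which did not pass, are shown with CCAAT or its reverse complement ATTGG in capitals, H2AC4 at chr6:26033619-26033768 on the minus strand and CCNB1 at chr5:69167000-69167149 on the plus strand.
H2AC4: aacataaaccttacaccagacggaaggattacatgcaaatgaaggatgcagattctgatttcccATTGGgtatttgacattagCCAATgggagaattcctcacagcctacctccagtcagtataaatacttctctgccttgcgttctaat
CCNB1: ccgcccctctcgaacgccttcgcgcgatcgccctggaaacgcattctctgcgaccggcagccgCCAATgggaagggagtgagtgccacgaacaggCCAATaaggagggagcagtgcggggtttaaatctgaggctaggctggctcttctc
Both stretches hold 2 matches.

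Most genes of ribosome making fell. Of 43 genes of MYC and ribosome biogenesis, 36 were lower and 1 higher, with a median of -0.98. MYC itself fell from 108 and 101 CPM to 36.5 and 36 CPM (log2 fold change -1.53, SE 0.18, adjusted p = 7.73e-06), the mitochondrial chaperonin HSPD1 from 657 and 674 to 192 and 229 CPM and dyskerin, DKC1, from 73.9 and 76.7 to 22 and 25.9 CPM. The 1 higher gene was ODC1, the rate-limiting enzyme of polyamine synthesis and a known MYC target, which rose from 52 and 59 to 229 and 179.8 CPM. Of 38 ribosomal protein genes, 26 were lower and 0 higher, with a median of -0.64; RPSA fell from 616 and 543 to 249 and 231 CPM and RPLP0 from 934 and 795 to 472 and 400.1 CPM.

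**Figure D3:**
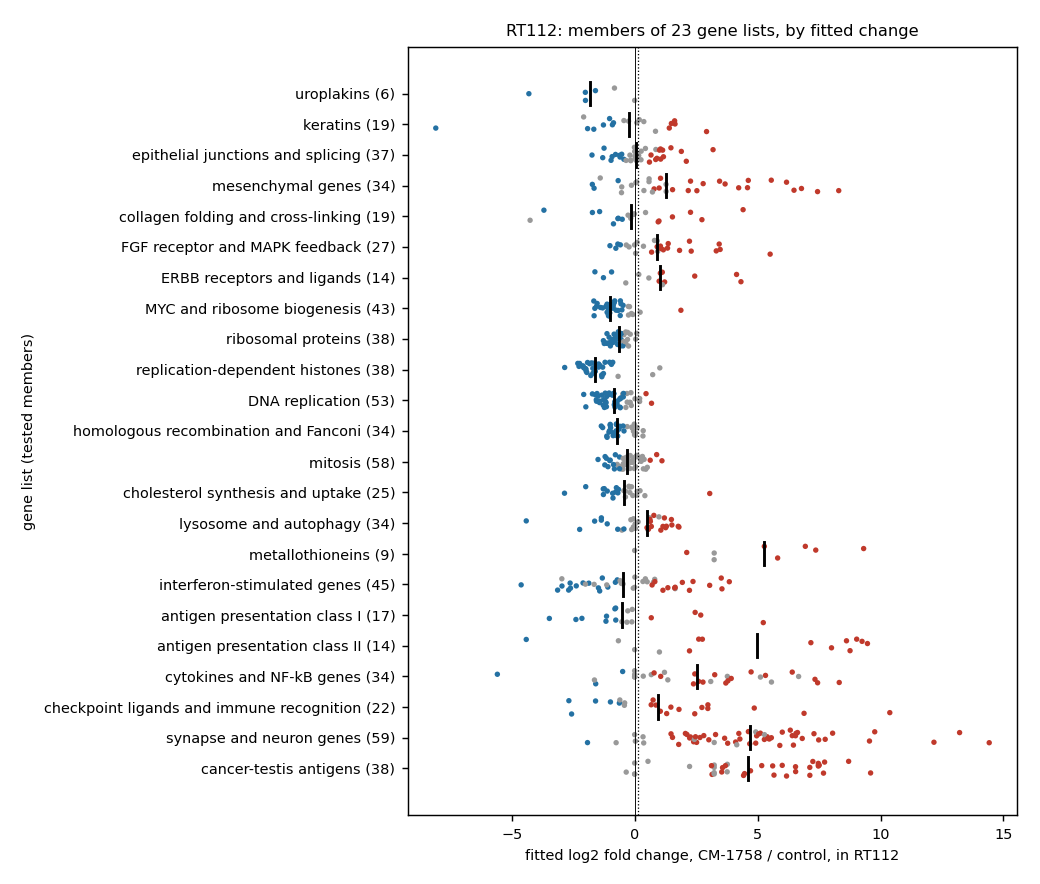
Fitted log2 fold change of CM-1758 against control in RT112 for each tested member of 23 gene lists (numbers of members in parentheses), with members higher at an adjusted p under 0.05 in red, lower in blue and others in grey. Black bars are list medians, from -1.80 for the uroplakins to 5.27 for the metallothioneins, and the dotted line is the median of all tested genes, 0.12; values of genes without control counts depend on the fit's prior count.

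Interferon-stimulated genes went in both directions in RT112. Of 45 tested, 13 were higher, near the 27.4% of all tested genes, and 15 lower (20.2% of all tested genes). Their median was -0.47, or 0.00 over members with at least 10 counts in every RT112 library. The antiviral genes IFIT1 (9.68 and 7.15 to 115 and 82 CPM), IFI6 (11.5 and 9.45 to 89.6 and 84.6 CPM), ISG15 (18.4 and 14.3 to 96.7 and 72.9 CPM) and DDX58, the RNA sensor RIG-I (23.8 and 24.7 to 116 and 112 CPM), rose. In the same libraries UBA7, the activating enzyme of ISG15 conjugation, fell from 11.8 and 7.32 to 0 and 0.763 CPM, SAMD9L from 56.1 and 59.2 to 6.34 and 11.6 CPM, TRIM22 from 10.3 and 6.88 to 1.13 and 1.07 CPM and GBP3 from 115 and 109 to 19.3 and 24 CPM. UBA7 had 0 counts in 1 treated library, and DESeq2 on RT112 alone did not call it (adjusted p = 0.102).

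Antigen presentation genes also divided. Of 17 class I genes, 4 were higher, near the 27.4% of all tested genes, and 8 lower (20.2% of all tested genes). HLA-B rose from 28.3 and 26 to 154 and 144 CPM (log2 fold change 2.46, SE 0.26, adjusted p = 2.68e-06), HLA-F from 0.327 and 0.542 to 16.8 and 16.1 CPM, and NLRC5, the transactivator of class I genes, from 1.21 and 1.25 to 6.34 and 9.57 CPM. Among the suppliers of peptides, the immunoproteasome subunits PSMB10 fell from 28.1 and 22 to 1.92 and 2.59 CPM and PSMB8 from 40.2 and 34.6 to 7.24 and 9.65 CPM, and the trimming peptidase ERAP2 from 218 and 201 to 33.5 and 46.5 CPM. The subunit PSMB9 rose from 3.92 and 2.64 to 5.2 and 5.3 CPM, a call lost without control library 2, treated library 1 or treated library 2 (adjusted p = 0.267, 0.0905 and 0.107). DESeq2 and edgeR on RT112 alone did not call PSMB9 either (adjusted p = 0.162 and 0.051). B2M, the shared light chain, fell from 1133 and 1165 to 686 and 659 CPM. HLA genes are polymorphic and alike in sequence, so reads can be shared among them. Of 14 class II genes, 10 were higher and 1 lower (CTSS), but 8 of the 10 came from at most 3 counts in each control library and stayed low: HLA-DRA reached 2.11 and 1.49 CPM and HLA-DPB1 3.95 and 2.56 CPM, at least 18-fold and 32.6-fold higher. Over the 13 members above 3 counts in any group, the median was 2.72 with floor genes at their bound, and over the few with at least 10 counts in every library it was -0.60.

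Among 22 ligands of immune checkpoints and immune recognition, 14 were higher (27.4% of all tested genes were) and 5 lower, near the 20.2% of all tested genes. Their median was 0.95. CD274, which encodes PD-L1, rose from 2.35 and 3.25 CPM to 20.3 and 23.9 CPM (log2 fold change 2.98, SE 0.18, adjusted p = 1.86e-08). TNFSF9, the ligand of the T cell receptor 4-1BB, rose 29.2-fold, from 5.07 and 4.1 to 145 and 122 CPM. Ligands of the natural killer receptor NKG2D rose, ULBP1 from 1.34 and 1.29 to 10.4 and 10.3 CPM and MICB from 8.14 and 8.17 to 43.4 and 45.4 CPM. TNFRSF14 and LGALS9 fell 6.41-fold and 5.95-fold.

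Of 34 cytokine and NF-kB genes, 16 were higher, 3 lower and 6 at 3 counts or fewer in all 4 libraries; the median of the other 28 was 2.30 with floor genes at their bound. The chemokine CXCL8 rose from 2.48 and 5.93 to 76.3 and 148 CPM, the NF-kB subunit NFKB2 from 10.0 and 12 to 65.2 and 68.1 CPM, its inhibitor NFKBIA from 65.7 and 66.5 to 133 and 143 CPM and the cytokine IL1A from 1.6 and 2.17 to 14 and 35.3 CPM. In TNFAIP3, IL1A, CXCL8, EGR1 and FOS, treated library 2 was higher than treated library 1, and both were above the control libraries. CSF1 fell from 8.57 and 7.76 to 2.23 and 3.2 CPM, a call lost without treated library 1 (adjusted p = 0.0827).

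Genes known from neurons and germ cells were mostly higher. Of 59 synapse and neuron genes tested, 48 were higher (27.4% of all tested genes were) and 1 lower, and 20 of the 48 came from at most 3 counts in each control library. The median of the 57 members above 3 counts in any group was 2.66 with floor genes at their bound. Some were expressed before treatment: the tubulin TUBB3 rose from 29.2 and 29.6 to 151 and 126 CPM, syntaxin STX1A from 5.23 and 6.54 to 25.8 and 25.6 CPM and the vesicle protein synaptophysin, SYP, from 1.83 and 1.8 to 28.1 and 21.9 CPM. The 1 lower gene was SNCG, gamma-synuclein, from 154 and 113 to 32.9 and 37.6 CPM. Of 38 cancer-testis antigen genes, 26 were higher and 0 lower, 21 of the 26 from the floor, and levels stayed low, with MAGEA1 at 11.1 and 8.43 CPM and MAGEC2 at 8.69 and 6.87 CPM; members of these families share sequence, so single values are uncertain.

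Metallothioneins, small proteins that bind zinc and copper, are transcribed in a cluster and switched by the metal-sensing factor MTF1. Of 9 tested, 6 were higher, 0 lower and 3 stayed at 3 counts or fewer in all 4 libraries, and the median of the 6 was 3.89 with floor genes at their bound. MT1X rose from 2.09 and 1.52 CPM to 112 and 93 CPM (log2 fold change 5.82, SE 0.35, adjusted p = 1.71e-08) and MT2A from 1.83 and 2.3 to 94.6 and 65.7 CPM (log2 fold change 5.27, SE 0.26, adjusted p = 3.79e-09). MT3, MT1G and MT1H rose from 0 counts to 3.29 and 2.56 CPM, 0.783 and 0.725 CPM and 0.587 and 0.534 CPM, although DESeq2 over all lines did not call MT1G or MT1H (adjusted p = 0.226 and 0.357). The copies are alike in sequence, and reads may be shared. The 150 bases before the start of the genes with the largest levels, with the metal response core (TGCGCNC or TGCACNC, either strand) in capitals, are at chr16:56608434-56608583 for MT2A and chr16:56682320-56682469 for MT1X, both on the plus strand.
MT2A: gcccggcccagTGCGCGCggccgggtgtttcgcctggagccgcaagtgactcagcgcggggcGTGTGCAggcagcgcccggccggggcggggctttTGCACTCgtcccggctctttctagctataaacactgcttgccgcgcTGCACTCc
MT1X: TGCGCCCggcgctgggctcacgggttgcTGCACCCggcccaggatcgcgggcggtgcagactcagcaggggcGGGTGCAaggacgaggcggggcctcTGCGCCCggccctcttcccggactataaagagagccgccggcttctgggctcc
Each stretch holds 4 marked runs, and the core was found in 36.7% of the promoter windows of all matched tested genes. The core was in 34.0% of windows of strictly higher genes, 33.5% of those of strictly lower genes and 58.1% of those of DNA replication genes, which mostly fell. Only 3 of the 9 metallothionein genes matched the promoter table (MT1H, MT1X and MT2A), and each of these windows held it.

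Promoter composition was compared between the called genes and all tested ones. The median GC content was 64.0% over 1591 matched promoters of strictly higher genes, 64.0% over the 14270 of all tested genes and 58.7% over 209 of strictly lower genes. The median number of CG pairs per 300 bases was 20, 24 and 13 in the same order, and 14.5 over 36 matched promoters of the 58 genes that went from silent to expressed.

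Other groups changed member by member, and their counts stand beside 27.4% higher and 20.2% lower among all tested genes. Of 34 lysosome and autophagy genes, 15 were higher and 8 lower, with the calcium channel MCOLN1 (3.42-fold), the autophagosome protein MAP1LC3B (3.49-fold) and the sialidase NEU1 (2.86-fold) up and CTSS, CTSH and CD63 (3.09-fold lower) down. Of 25 genes of cholesterol synthesis and uptake, 12 were lower and 1 higher; ACAT2 fell 3.97-fold and the sterol carrier STARD4 rose 8.31-fold, while HMGCS1 did not pass (adjusted p = 0.777). Among cytosolic heat shock genes 5 of 20 were higher and 7 lower, and among endoplasmic reticulum chaperones 3 of 19 were higher and 6 lower, with HSPA5, the chaperone BiP, up from 167 and 228 to 437 and 617 CPM and the stress factor XBP1 down from 208 and 205 to 76 and 82 CPM.

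Of 26 genes that promote apoptosis, 7 were higher and 5 lower, shares near the 27.4% and 20.2% of all tested genes, so the list did not stand apart by its counts. The BH3-only genes BMF, BIK and BCL2L11, which encodes BIM, rose from 4.51 and 3.59 to 38.9 and 42.3 CPM, from 5.0 and 3.9 to 20.5 and 20.1 CPM and from 19.6 and 19.4 to 45.1 and 48.3 CPM. BID fell from 85.9 and 79.1 to 18.8 and 17.4 CPM, and the death ligand TRAIL, TNFSF10, and its receptor TNFRSF10A fell 3.46-fold and 2.65-fold. Of 11 restraining genes, BIRC3 and BCL2L1, which encodes BCL-XL (2.39-fold), were higher, 2 were lower and 3 stayed at the floor; MCL1 did not pass at 295 and 270.2 CPM in control and 289 and 311 CPM with CM-1758.

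Of the 11 histone deacetylase genes themselves, 3 were higher and 2 lower, shares near the 27.4% and 20.2% of all tested genes. HDAC9 rose from 0.752 and 0.474 CPM to 12.6 and 12.7 CPM (log2 fold change 4.35, SE 0.25, adjusted p = 1.01e-08) and HDAC5 2.29-fold. HDAC7 fell from 48.5 and 52.6 to 19.5 and 19.5 CPM and HDAC6 1.44-fold. The class I genes HDAC1 (162 and 153 CPM in control, 164 and 143 CPM with CM-1758) and HDAC2 (123 and 119 and 102 and 104 CPM) did not pass, and the call of HDAC3 (1.34-fold, adjusted p = 0.0497) was lost without a filter on low counts (adjusted p = 0.078) and without any 1 library (adjusted p = 0.0986 to 0.219). Of 12 DNA methylation genes, 5 were lower and 0 higher, among them the maintenance methyltransferase DNMT1 (138 and 153 to 95 and 91.6 CPM) and its partner UHRF1 (110.4 and 117 to 58.5 and 45 CPM).

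Across all tested genes, 27.4% were higher and 20.2% lower. Near these shares were the counts of lower WNT and Notch genes and of higher glycolysis and tetraspanin genes. Of the pathway lists, WNT had 19 of 40 genes higher and 8 lower, Notch 10 of 26 and 5, TGF-beta 14 of 38 and 5, and NRF2 targets 10 of 24 and 7. Xenobiotic and retinoid metabolism had 12 of 33 higher and 10 lower, glycolysis and hypoxia 8 of 29 and 11, and amino acid stress 9 of 20 and 7. Tetraspanins had 6 of 23 higher and 9 lower, among them TSPAN8, which fell from 9.64 and 10.2 to 0.274 and 0.343 CPM.

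Whether a change was larger or smaller in RT112 than elsewhere was tested as the RT112 log2 fold change minus the mean of the other 3 lines' changes. At a difference beyond 2 and an adjusted p under 0.01, 629 genes lay higher in RT112 (2.95%) and 557 lower (2.62%). At an adjusted p under 0.05 with no limit on the size, 2512 lay higher (11.8%) and 2640 lower (12.4%), and the list counts below are to be read against these shares. For 2188 genes another line had 0 counts in both groups, so its change is undefined and the test gives no answer. UPK1B and KRT13 are among them. A further 3080 genes had 0 counts in 1 group of another line only, and 337 of the strict differences lie there. Their median SE was 2.02, against 0.24 for genes with counts in every group. For some of these, such as KIF1A and CD70, the test gave no usable answer either (adjusted p = 0.99994 for both). The doses differed between lines, since each received its own IC50, so line and dose cannot be told apart here. Of the 2429 strictly higher genes of RT112, 337 (13.9%) were strictly higher in each of the other lines and 722 (29.7%) in 0 of them, and of the 295 strictly lower genes, 23 (7.80%) and 153 (51.9%). The strictly higher genes shared with TCCSUP numbered 1295, which is 53.3% of the RT112 list and 42.8% of that of TCCSUP, against 814 with 253J (33.5% and 40.5%) and 898 with J82 (37.0% and 47.9%). A strict call in the opposite direction in any other line was found for 117 of the higher genes (4.82%) and 41 of the lower ones (13.9%).

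The mitosis list showed the difference most broadly. In 56 of 58 genes the change in RT112 was higher than the mean of the other lines at an adjusted p under 0.05, and in 0 lower, against 11.8% and 12.4% of all tested genes. The median change was -0.32 in RT112, -2.37 in 253J, -1.05 in J82 and -2.22 in TCCSUP. For MKI67 the difference was 2.15 (SE 0.43, adjusted p = 0.00182), for TOP2A 1.74 (SE 0.25, adjusted p = 0.000144) and for CCNB1 1.68 (SE 0.27, adjusted p = 0.00039). Of 53 DNA replication genes, 6 lay higher (11.8% of all tested genes did) and 10 lower (12.4%), so the higher share was that of genes at large. MCM5 differed by -1.05 (SE 0.18, adjusted p = 0.000683). The change of CDKN1A in RT112, which did not pass there, minus the mean of the other lines was -2.04 on the log2 scale (SE 0.29, adjusted p = 0.000113).

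Among the immune lists, interferon-stimulated and class I genes lay mostly higher in RT112, while 9 of 22 checkpoint ligands lay higher and 2 lower, and 1 of 14 class II genes each way. Of 45 interferon-stimulated genes, 28 lay higher and 1 lower (11.8% and 12.4% of all tested genes), with median changes of -0.47 in RT112, 0.00 in 253J, -3.03 in J82 and -2.39 in TCCSUP. IFIT1 differed by 4.95 (SE 0.28, adjusted p = 3.05e-08). Of 17 class I genes, 12 lay higher and 0 lower, with HLA-B at 3.45 (adjusted p = 1.05e-06), and CD274 differed by 2.56 (adjusted p = 5.01e-07). Of 19 endoplasmic reticulum chaperones and of 19 collagen folding genes, 13 each lay higher and 0 lower, but the difference for SERPINH1 did not pass (0.26, SE 0.24, adjusted p = 0.524).

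Ribosome biogenesis went the other way, with 17 of 43 genes lower in RT112 than in the mean of the other lines and 0 higher (12.4% and 11.8% of all tested genes). MYC differed by -1.15 (SE 0.20, adjusted p = 0.000692). FGFR3 differed by -2.86 (SE 0.18, adjusted p = 8.03e-08) and ERBB3 by -3.30 (SE 0.28, adjusted p = 1.00e-06), so both fell in RT112 against a mean that rose. Mean FGFR3 levels in control and with CM-1758 were 8.51 and 8.41 CPM in 253J, 12.78 and 51.65 CPM in J82 and 1.98 and 23.5 CPM in TCCSUP. FGFR3 thus did not rise in 253J, and each of these lines began far below the RT112 control libraries. Of 34 mesenchymal genes, 18 lay higher (11.8% of all tested genes) and 4 lower, a share near the 12.4% of all tested genes, with CDH2 at 3.69 (adjusted p = 1.98e-08) and VIM at 3.96 (adjusted p = 8.31e-06). VIM began at only 0.719 and 0.169 CPM in RT112 control. It also rose in TCCSUP (log2 fold change 1.93, adjusted p = 6.00e-05), with changes of -0.14 in 253J and -0.98 in J82.

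**Figure D4:**
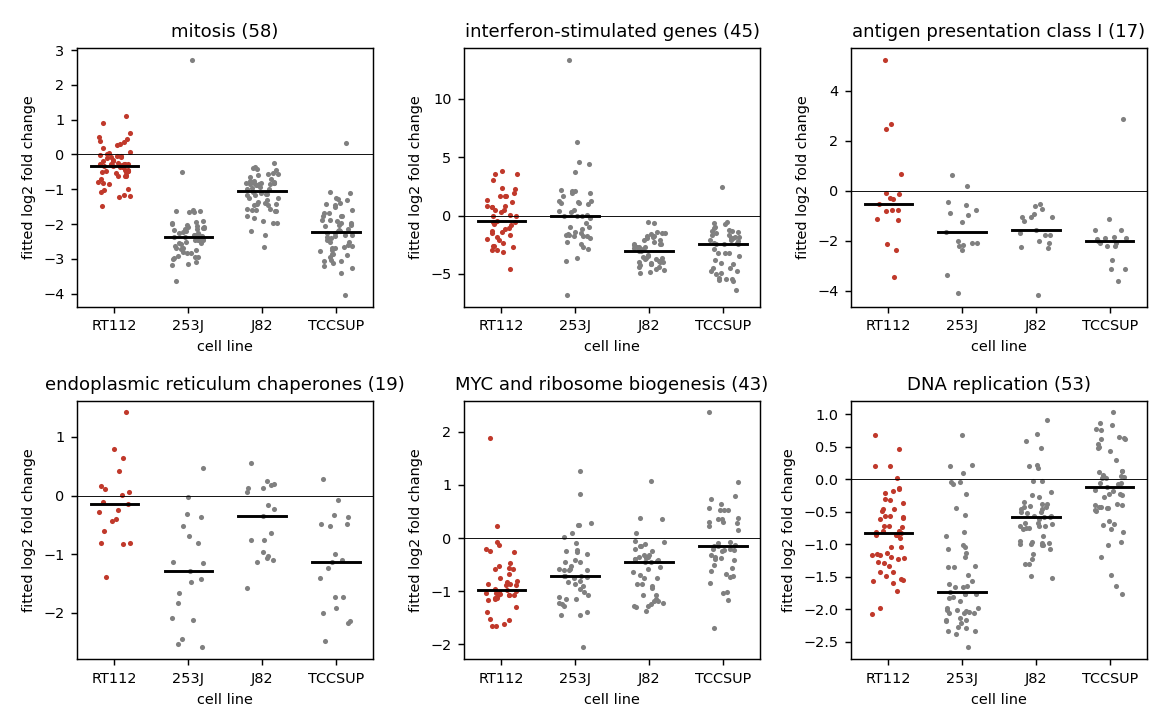
Fitted log2 fold change of CM-1758 against control for the tested members of 6 gene lists (numbers in parentheses) in RT112 (red) and in 253J, J82 and TCCSUP (grey), with the median of each as a black bar. Mitosis genes lay near 0 in RT112 (median -0.32) and lower in the other lines (medians -2.37, -1.05 and -2.22), while MYC and ribosome biogenesis genes were lowest in RT112 (-0.98).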

How the data were processed

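Total RNA of 4 bladder cancer cell lines, with and without CM-1758, was sequenced in 16 libraries, of which the 4 of RT112 are described. The authors deposited raw counts per gene by symbol for all libraries in 1 table, and the submitters' notes name HISAT2, StringTie and GRCh37, without giving their roles or versions. Groups came from the sample labels, and 0 columns belonged to other samples.

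Counts were tested in edgeR 4.0.16 (R 4.3.3): genes passing filterByExpr over the 8 groups (21297 of 35993), TMM normalization, the quasi-likelihood F test with all 16 libraries sharing the spread, and Benjamini-Hochberg adjustment over all tested genes. The contrasts were treated minus control in RT112, and that effect minus the mean effect of the other 3 lines. CPM values were computed from the counts with TMM scaling, and SE is that of the fitted log2 fold change. A gene at no more than 3 counts in each library of a group was set to a floor of 3 counts per library for bounds, which cover counting error only. RT112 depth was 22756616 to 30502612 counts. The script was tested on simulated data.

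Alternatives were RLE and library size scaling, DESeq2 1.42.0 and edgeR with other samples or filters, another fold limit, the replicate block, 7 small noncoding RNA genes left out, and each RT112 library left out. The members and the 47 gene lists were chosen with earlier results of these data known, so list counts are descriptions. Named genes were, among calls with more than 3 counts in every RT112 library and an average of 10 CPM or more in the higher RT112 group, the 10 largest log2 changes (strict calls without overlap) and the 6 largest differences per direction; the 8 largest CPM changes per direction; the 8 highest genes that appeared; up to 2 members per list and direction with at least 5 CPM in the higher group; and a list of genes of interest; further list members were named as examples after their values were seen. Promoters and biotypes came from RefSeq (GRCh38.p14) by symbol, with no GRCh37 coordinates used. Plots were drawn with matplotlib 3.10.9. Some results that the rule for named genes would include are not reported here.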

Additional observations from a re-analysis of the deposited data

Results flagged for a closer look

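The response of RT112 differed from the mean of the other 3 lines in 629 genes with a higher change in RT112 and 557 with a lower one, by the edgeR test of the difference itself at a difference beyond 2 on the log2 scale and an adjusted p under 0.01. The doses differed between lines, so line and dose cannot be told apart.

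Among called genes with more than 3 counts in every RT112 library and an average of 10 CPM or more in the higher RT112 group, the 6 highest differences were in genes measured in every group of the other lines. Genes silent in RT112 control, such as PAK3 with a difference of 10.73, had higher fitted differences and are left out by that limit. C12orf75 rose in RT112 from 0.360 and 0.203 to 26.6 and 19 CPM, a difference of 6.90 (SE 0.42, adjusted p = 5.16e-08), where the other lines held 104 to 150 CPM in control. L1CAM, a neural adhesion molecule, rose from 2.16 and 2.61 to 130.1 and 118 CPM and differed by 6.39 (SE 0.51, adjusted p = 5.40e-07). APOBEC3B, a cytidine deaminase of DNA, rose from 2.55 and 2.88 to 67.8 and 95 CPM and differed by 6.30 (SE 0.37, adjusted p = 4.41e-08). The membrane-binding annexin ANXA6 rose from 0.687 and 0.678 to 40.8 and 38.6 CPM and differed by 5.96 (SE 0.21, adjusted p = 5.40e-10). For RAB3B the difference was 5.92 and for SLC4A8 5.78, and both genes are described above. In each of these 6 genes the RT112 control libraries were lower than the control mean of every other line.

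By the same limits, which apply to the RT112 libraries and not to the other lines, the 6 lowest differences were those of BCAS1 (-12.46), CEACAM6 (-9.10), TC2N (-9.02), BMP3 (-9.00), the fatty acid binding protein gene FABP4 (-8.96) and PLCH2 (-8.27). Each was expressed in RT112 before treatment, with BCAS1 at 141 and 116 CPM, TC2N at 68.9 and 69 CPM, BMP3 at 174 and 132 CPM, FABP4 at 1018 and 1036 CPM and PLCH2 at 10.0 and 12.8 CPM, and had at most 0.230 CPM in the control mean of any other line. At most 3 counts per library were found in 2 to 4 of the 6 groups of the other lines, so the sizes of these differences rest on fitted values and not on a measured fold. In RT112 the falls of TC2N and FABP4 did not pass (adjusted p = 0.149 and 0.0716), but did with edgeR on RT112 alone (adjusted p = 0.0199 and 0.00763). For all 6 genes the mean fitted change of the other lines was a rise, from 5.56 for BMP3 to 9.70 for BCAS1. Treated means of 253J, J82 and TCCSUP were 0.0506, 7.28 and 14.9 CPM for TC2N and 14.8, 11.8 and 0.769 CPM for FABP4.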

How the results depend on the processing

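The strict counts of 2429 higher and 295 lower genes stayed within 1.5 times under other normalizations, DESeq2, no filter on low counts and fits of RT112 alone, with 1993 to 2594 higher and 227 to 312 lower. With at least 10 counts in every RT112 library, 717 genes were strictly higher, 3795 were higher at an adjusted p under 0.05, and 300 differed upward from the other lines; this filter removes genes silent in control. Genes above the median level gave 559 strictly higher and 142 strictly lower, and a log2 limit of 1 gave 1549 strictly lower. The 58 genes that appeared became 38 with 0 control counts required and 425 at 1 CPM. Without 1 library, the strictly higher genes numbered 1764 to 1968, the strictly lower 242 to 299, the higher 4343 to 4910, the lower 3215 to 3431, the higher differences 489 to 536, the lower differences 455 to 470 and the appearing genes 71 to 80. List medians turned sign in 4 cases: with at least 10 counts in every RT112 library, keratins from -0.25 to 0.15, class II genes to -0.60 and interferon-stimulated genes to 0.0041, and keratins to 0.19 without control replicate 2, with a range of -0.37 to 0.19 when 1 library is left out; the filter leaves fewer genes, and the cause was otherwise not tested. A further 231 alternatives moved a list median without turning its sign, and 375 counted as the same. Library size scaling moved 37 of the 47 list medians and RLE scaling 22, so the sizes of list medians depend on the scaling. Of 3902 alternatives for single genes, 98 lost a call and 24 gained one, and no called gene turned direction under any of them.

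Replicate numbers are shared between the groups, but samples with the same number deviated together with a correlation of only 0.0427 over the RT112 pairs, so the numbers were not taken to pair samples. With the replicate block, 2303 and 292 genes were strictly higher and lower, 6131 and 4690 at an adjusted p under 0.05, and 639 and 566 differed from the other lines. With 2 libraries per group, small changes may go undetected, and genes with few counts in control have fold changes that depend on the floor.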
